A study of Mus musculus with 10 samples.

Results

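Glycosyltransferases of the Golgi apparatus that attach fucose, galactose, N-acetylglucosamine, N-acetylgalactosamine or sialic acid were followed through the reprogramming of mouse fibroblasts. Members were the genes with a protein-coding transcript whose symbol belongs to the Fut, B4galt, B3galt, B3gnt, B4galnt, St3gal, St6gal (St6galnac included), St8sia, Galnt, Gcnt or Mgat families. The rule found 83 genes among the 45706 genes of the deposited tables, of which 21923 have a protein-coding transcript. No expression value entered the rule. RNA sequencing covered 5 groups with 2 libraries each. Mouse embryonic fibroblasts (MEFs) came from C57BL/6 x 129 mice that carry a polycistronic cassette of the reprogramming factors Oct4, Klf4, Sox2 and Myc (OKSM) in the Col1a1 locus and the transactivator M2rtTA in the Rosa26 locus. The MEF group was kept in MEF medium without doxycycline and was not sorted. Day 3, day 6 and day 9 cells had the same strain and genotype and were grown in embryonic stem cell medium with doxycycline at 1 µg/ml and ascorbic acid at 50 µg/ml. The step from MEFs to day 3 thus changes medium, doxycycline and ascorbic acid together. Day 3 cells were unsorted, whereas day 6 and day 9 cells were sorted as positive for stage-specific embryonic antigen 1 (SSEA1). The embryonic stem cells (ESCs) were the single established line V6.5, unsorted, grown on irradiated feeder cells in medium with serum and the cytokine LIF, with no doxycycline recorded in the labels. Per the labels all 10 RNA libraries share a batch label. The design text calls the replicates biological, and the labels do not say whether those of a group came from separate animals or cultures, so the p-values measure only the spread between these libraries.

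Glycosyltransferases build sugar chains on proteins and lipids step by step, each transferring a sugar from a nucleotide donor to a defined acceptor. The antigen SSEA1, also called Lewis x or CD15, is a short chain in which a fucose is attached to the N-acetylglucosamine of N-acetyllactosamine (galactose joined to N-acetylglucosamine). Galactosyltransferases of the B4galt family make N-acetyllactosamine, B3gnt enzymes extend it, and Gcnt and Mgat enzymes set how many branches carry it. Fut4 and Fut9 can add the fucose that makes SSEA1. A sialic acid on the galactose of the same chain, added by St3gal enzymes, gives sialyl Lewis x, which is a different epitope. Fut7 makes sialyl Lewis x. SSEA1 marks mouse embryonic stem cells and cells on the way to induced pluripotency, and the design of the study uses it to enrich for the latter.

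Libraries held 29585876 to 38275024 estimated reads, of which the 83 members took between 0.126% (day 9, replicate 1) and 0.169% (day 3, replicate 2). Levels of a gene across libraries are given as CPM, counts scaled by library total and TMM factor, in the order replicate 1 and replicate 2. Levels of different genes are compared as TPM, which also corrects for transcript length. The summed TPM of 11 fibroblast markers was 9909 and 9430 in MEFs, 496 and 520 at day 3, 11.6 to 25.4 in the 4 sorted libraries, and 840 and 886 in ESCs, with Col1a1 at 314 and 327 TPM in ESCs. The summed TPM of 8 pluripotency markers was 0.84 and 0.57 in MEFs and 1.44 and 1.89 at day 3. It was 30.5 and 30.4 at day 6, 99.3 and 97.9 at day 9, and 2592 and 2620 in ESCs. The 6 epithelial markers summed to 249 and 257 TPM at day 9 and to 105 and 103 TPM in ESCs. The 6 macrophage markers summed to 42.9 and 44.0 TPM in ESCs and at most 10.9 TPM elsewhere, nearly all from Cd68 and Lyz2, with Ptprc at no more than 0.135 TPM in any library. The 5 endothelial markers summed to between 16.8 and 19.7 TPM at day 3 and day 6, mostly from Tek. The part of these cell types in the results was not tested. In bulk RNA, fewer cells of a type and less RNA per cell cannot be told apart.

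Fut9 (chromosome 4, 25609332 to 25800244, minus strand, GRCm38), the enzyme known to make SSEA1 in the early mouse embryo, changed more than any other fucosyltransferase. It was at 0.148 and 0.0915 CPM in MEFs (4 and 3 reads) and at 2.48 and 2.87 CPM at day 3 (92 and 97 reads). At day 6 it stood at 74.3 and 67.3 CPM, at day 9 at 72.1 and 67.2 CPM, and in ESCs at 15.2 and 13.5 CPM. The MEF, day 3 and ESC pairs thus lay apart from each other and from the sorted libraries, while the day 6 and day 9 pairs overlapped. By edgeR's quasi-likelihood test with Benjamini-Hochberg adjustment over 20165 genes, Fut9 was 22.1-fold higher at day 3 than in MEFs (log2 fold change 4.47 ± 0.35 (SE), adjusted p = 3.9e-08). From day 3 to day 6 it rose 26.6-fold (4.73 ± 0.10, adjusted p = 3.4e-14). That step combines 3 days of further induction with sorting for the epitope that Fut9 makes, and the contributions cannot be told apart. Between day 6 and day 9, both sorted, the log2 fold change was -0.03 ± 0.06 (adjusted p = 0.81). In ESCs Fut9 was 4.84-fold lower than at day 9 (log2 fold change -2.28 ± 0.07, adjusted p = 1.6e-12) and 119-fold higher than in MEFs (6.90 ± 0.23, adjusted p = 1.3e-12). On the log2(TPM + 1) scale with limma, the rise at day 3 was 0.13 (adjusted p = 0.062), and the ESC differences of -0.98 from day 9 and 0.86 from MEFs were under the minimum of 1.

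**Figure D1:**
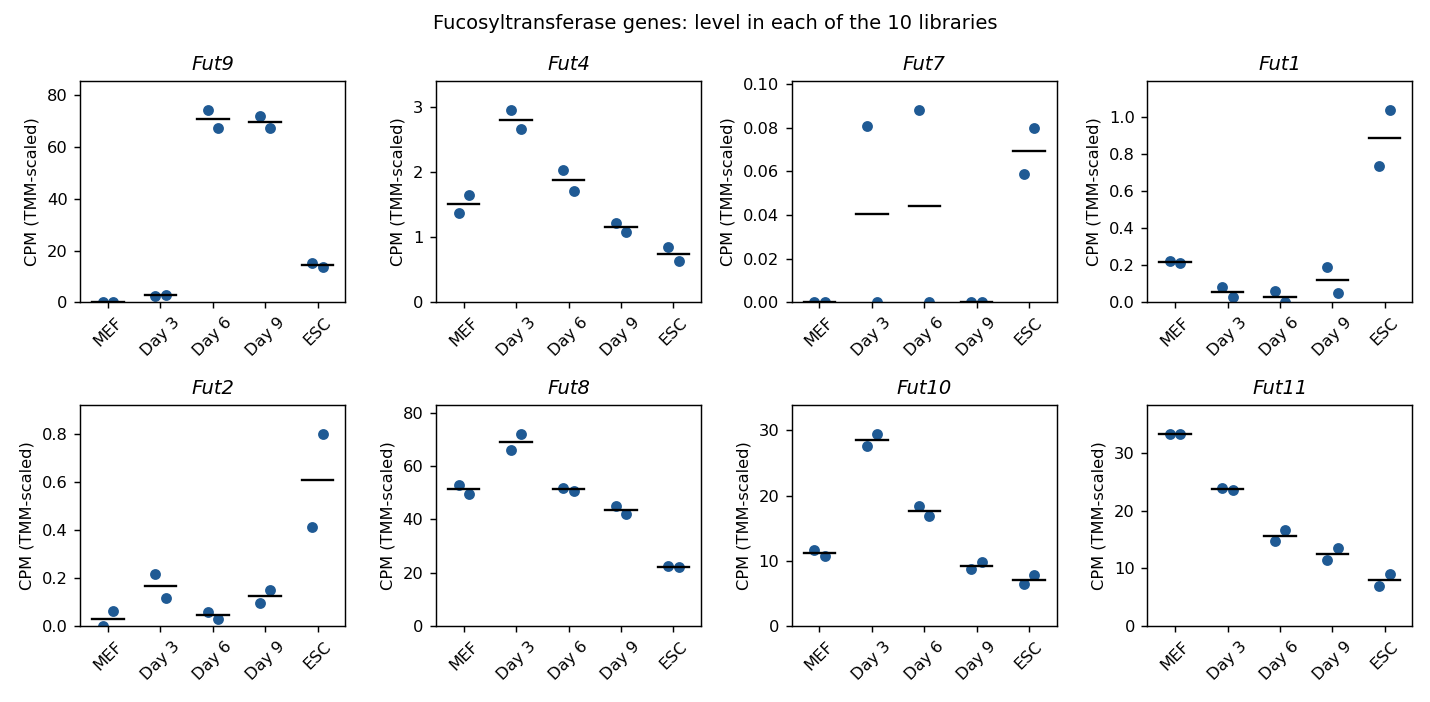
Level of each of the 8 fucosyltransferase genes in the 10 libraries. Each panel is 1 gene with its own linear vertical axis in CPM (TMM-scaled), points are libraries, and black bars are means of 2 libraries. Fut9 lies between 67.2 and 74.3 CPM in the 4 sorted libraries and at or below 15.2 CPM elsewhere, whereas Fut4 stays under 3 CPM throughout.

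Fut4, the other member known to make Lewis x, followed a different course. It was at 1.37 and 1.65 CPM in MEFs, 2.96 and 2.66 CPM at day 3, 2.03 and 1.72 CPM at day 6, 1.22 and 1.09 CPM at day 9, and 0.854 and 0.641 CPM in ESCs. Its level was thus highest at day 3 and lowest in ESCs, with 24 to 110 reads behind each value. None of the 3 steps from MEF to day 9 nor the step from day 9 to ESC passed both thresholds (log2 fold changes between -0.70 and 0.89). Only ESCs against MEFs was called, at -1.02 ± 0.28 (adjusted p = 0.0041, edgeR), and without MEF replicate 2 or ESC replicate 2 that value was -0.87 and -0.83, under the minimum. It was also under the minimum without TMM (-0.68) and with limma on log2(TPM + 1) (-0.12). Fut7, which makes sialyl Lewis x in leukocytes, had 0 to 3 reads per library and was not tested.

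Because the transcripts differ in length, Fut9 and Fut4 were also set side by side as TPM. The Fut9 transcript that took at least 87.6% of the gene's reads in each day 3, day 6, day 9 and ESC library is 12134 nt long, so many Fut9 reads correspond to few TPM. Fut9 was at 0.0953 and 0.123 TPM at day 3, 3.01 and 2.77 TPM at day 6, 2.75 and 2.51 TPM at day 9 and 0.847 and 0.839 TPM in ESCs. Fut4 was at 0.397 and 0.371 TPM at day 3, 0.276 and 0.233 TPM at day 6, 0.157 and 0.138 TPM at day 9 and 0.122 and 0.09 TPM in ESCs. Fut9 therefore took 17.3% and 24.8% of the summed TPM of Fut4, Fut7 and Fut9 at day 3, 90.9% and 92.2% at day 6, 94.6% and 94.8% at day 9, and 84.5% and 78.1% in ESCs. In MEFs its share was 13.7% and 1.57%, from 4 and 3 reads. The sum of the 3 genes was 0.218 ± 0.00521 TPM (SD, n = 2) in MEFs and 0.522 ± 0.0395 TPM at day 3. It stood at 3.15 ± 0.220 TPM at day 6, 2.77 ± 0.181 TPM at day 9 and 1.04 ± 0.0510 TPM in ESCs. The order by TPM changed accordingly. Among the 83 members Fut9 had rank 69 in MEFs and rank 54 at day 3, then rank 32 at day 6, rank 30 at day 9 and rank 49 in ESCs. Fut4 kept to ranks 49 to 54 in the first 4 groups and had rank 67 in ESCs. A shorter Fut9 transcript, Fut9-003 (2579 nt), held 37 and 57 reads in ESCs, or 7.18% and 11.2% of the gene, against 0 to 2 reads in each day 3, day 6 and day 9 library.

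The sequences of Fut9 and Fut4 are far enough apart for reads of 50 nt to be assigned. The window of 90 coding bases in which they are most alike is printed here because it shows how little they share: 58 bases are identical, 32 differ (in capitals), and the longest run shared by the coding sequences is 12 bases. The Fut9 stretch is coding bases 540 to 629 of 1080, at chr4:25620184-25620273 (minus strand, GRCm38), and the Fut4 stretch is coding bases 753 to 842 of 1302, at chr9:14751155-14751244 (minus strand, GRCm38).
Fut9: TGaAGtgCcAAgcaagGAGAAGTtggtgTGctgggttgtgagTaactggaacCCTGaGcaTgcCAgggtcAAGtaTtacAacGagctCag
Fut4: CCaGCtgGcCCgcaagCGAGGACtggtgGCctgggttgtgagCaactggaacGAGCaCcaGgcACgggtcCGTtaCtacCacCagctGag
Of the 31-base words of Fut9 exons, 0.0145% also occur in exons of another gene, and none of those of Fut4 do.

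Of the 83 members, 75 had enough reads to be tested. The other 8 were B3galt2, B3galt5, B3gnt6, Fut7, Galnt5, Gcnt7, Mgat4d and St6galnac1, all under 0.5 CPM in every library. Called members are those with an adjusted p under 0.05 (edgeR) and at least a 2-fold change. Relative to MEFs, 15 members were higher and 14 lower after 3 days, against 14.6% higher and 14.5% lower of all tested genes. From day 3 to day 6, 10 rose and 10 fell, against backgrounds of 9.26% and 10.2%. From day 6 to day 9, 8 rose and 7 fell, against 5.18% and 2.68%, but without day 9 replicate 1 only 4 fell. In ESCs, 24 members were higher and 13 lower than at day 9, against 18.6% and 14.3%. Relative to MEFs, 22 were higher and 22 lower in ESCs, with backgrounds of 25.5% and 20.6%. As shares of the 75 tested members these counts run from 9.33% to 32.0%.

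**Figure D2:**
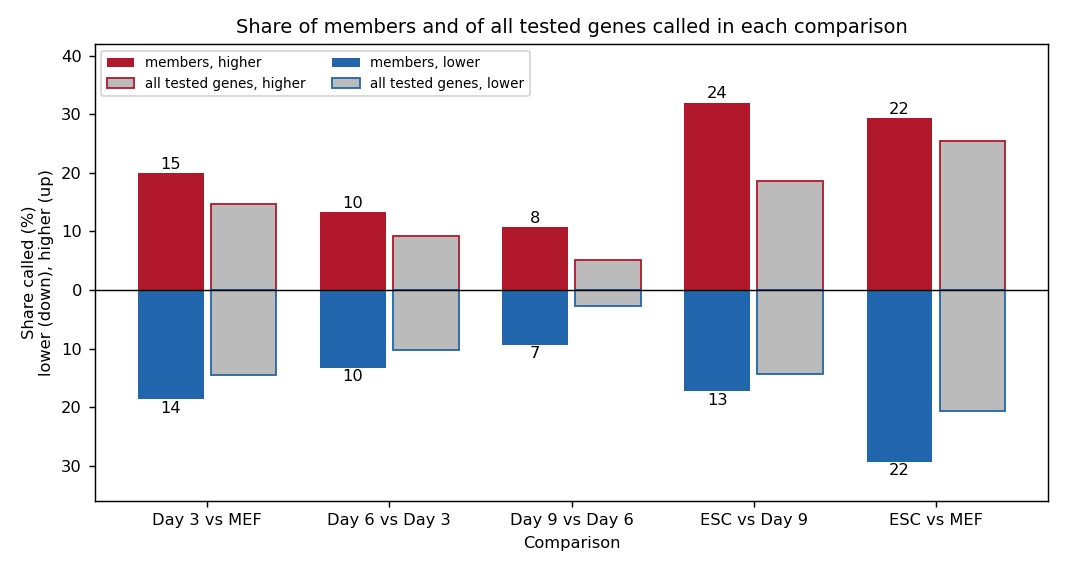
Share of the 75 tested members (coloured bars, with the number of members printed) and of all 20165 tested genes (grey bars) called in each comparison. The vertical axis is percent, with genes called higher drawn upward and genes called lower drawn downward from 0. The widest gap is for ESCs against day 9, where 24 members (32.0%) and 18.6% of all genes were higher.

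Median log2 fold changes of the tested members were 0.00, -0.24, -0.06, 0.18 and -0.16 for the 5 comparisons in that order, and those of all tested genes were 0.08, 0.03, 0.00, 0.00 and 0.10. The median of the absolute log2 fold change was 1.00 over the members and 0.63 over all tested genes at day 3, 0.82 and 0.44 at day 6, 0.48 and 0.24 at day 9, 1.07 and 0.62 for ESCs against day 9, and 1.20 and 0.98 for ESCs against MEFs. Over the 5 comparisons, 61 members were called at least once and 14 never. The share of all tested genes called at least once was not counted, so these numbers have no background beside them. B3gnt9 and Galnt18 were called in all 5. Members that rose at both the day 3 and the day 6 step were Fut9, B4galnt4, St8sia1 and St8sia6. B4galnt3 and Mgat5b rose at both the day 6 and the day 9 step. B3galt1, B3gnt9 and Galnt18 fell at both the day 3 and the day 6 step.

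**Figure D3:**
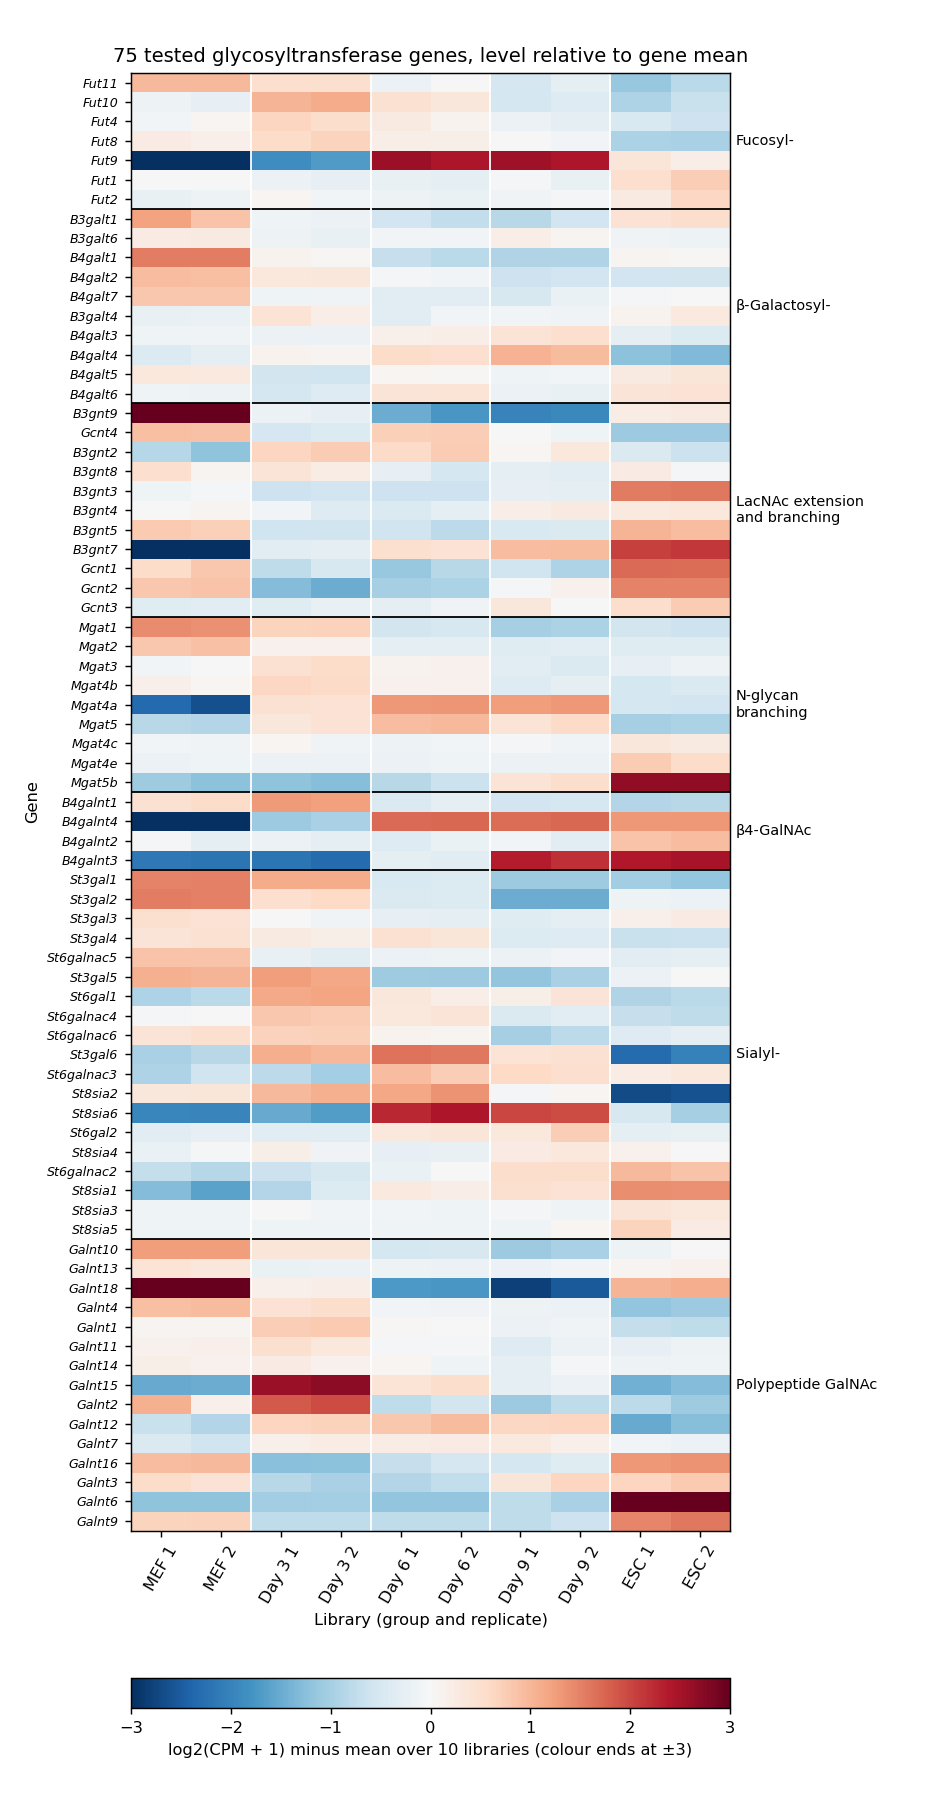
Level of the 75 tested members in each library, as log2(CPM + 1) minus the gene's mean over the 10 libraries (red above, blue below, colour ends at 3 on either side). Rows are genes grouped by enzyme class, columns are libraries. Fut9 and St8sia6 are red in the day 6 and day 9 columns, B3gnt9 and Galnt18 in the MEF columns, and Galnt6 in the ESC columns.

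Among the fucosyltransferases, 2 of 7 tested members rose at day 3 (Fut9 and Fut10), where 14.6% of all tested genes were higher. The number of members was 4 when libraries were scaled by total reads without TMM. Fut8, which adds the core fucose of N-glycans, was the most abundant in TPM in every group, with 9.00 and 8.26 TPM in MEFs and 4.04 and 3.89 TPM in ESCs. In CPM it was at 53.0 and 49.6 in MEFs, 66.1 and 72.1 at day 3, 51.7 and 50.7 at day 6, 45.1 and 42.1 at day 9 and 22.5 and 22.1 in ESCs. Its level was lowest in ESCs, which lay below MEFs by a log2 fold change of -1.20 ± 0.06 (adjusted p = 1.6e-10, edgeR). Without TMM that difference was -0.86, under the minimum.

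Fut10, a family member related by sequence, rose at day 3 from 11.7 and 10.8 CPM to 27.6 and 29.5 CPM (log2 fold change 1.35 ± 0.09, adjusted p = 9.9e-09, edgeR). It was at 18.4 and 16.8 CPM at day 6, 8.74 and 9.75 CPM at day 9 and 6.39 and 7.88 CPM in ESCs. Fut11 was highest in MEFs, at 33.4 CPM in both libraries, and lower in each later group, with 24.0 and 23.6 CPM at day 3, 14.7 and 16.6 CPM at day 6, 11.5 and 13.6 CPM at day 9 and 6.98 and 9.05 CPM in ESCs. No single step of Fut11 reached the 2-fold minimum, while ESCs against MEFs gave -2.05 ± 0.10 (adjusted p = 1.7e-10, edgeR). Fut1 and Fut2, which make the H antigen by adding fucose to galactose, were near the limit of detection. Fut1 had 0 to 7 reads per library outside ESCs and 25 and 39 reads in ESCs (0.737 and 1.04 CPM). Fut2 had 0 to 8 reads outside ESCs and 14 and 30 reads in ESCs (0.412 and 0.801 CPM), or 18.5 times the MEF level of 2 reads (exact 95% interval 4.81 to 157, counting error only). Both were called higher in ESCs than at day 9 and in MEFs, but without ESC replicate 2 the call of Fut1 against MEFs (adjusted p = 0.073) and of Fut2 against day 9 (adjusted p = 0.12) was lost. DESeq2 did not make these 2 calls either.

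The β-galactosyltransferases supply the galactose of N-acetyllactosamine and of other chains. Of 10 tested, B4galt1 and B3galt1 fell at day 3 (4 members with DESeq2's size factors), where 14.5% of all tested genes were lower. B3galt1 fell again at day 6 (10.2% of all genes lower). None was called at day 9 (5.18% of all genes higher and 2.68% lower). In ESCs, 1 was higher and 1 lower than at day 9 (18.6% and 14.3% of all genes). Relative to MEFs, 3 were lower in ESCs (2 without TMM) and none was higher, against 20.6% and 25.5% of all genes. B4galt1, a main N-acetyllactosamine synthase, was at 189 and 190 CPM in MEFs, 70.2 and 66.6 CPM at day 3, 39.6 and 36.5 CPM at day 6, 34.2 and 34.0 CPM at day 9 and 68.8 and 66.5 CPM in ESCs. Its fall at day 3 was 2.77-fold (log2 fold change -1.47 ± 0.04, adjusted p = 5.6e-13, edgeR). B4galt4, a second galactosyltransferase of this type, took the opposite course, with 13.3 and 14.6 CPM in MEFs, 19.3 and 19.1 CPM at day 3, 26.5 and 26.0 CPM at day 6, 38.1 and 35.2 CPM at day 9 and 7.07 and 6.52 CPM in ESCs. It was 5.39-fold lower in ESCs than at day 9 (log2 fold change -2.43 ± 0.07, adjusted p = 9.5e-13, edgeR). Between 40.1% and 78.7% of its reads per library were assigned to B4galt4-006, a transcript annotated for nonsense-mediated decay. The level of its protein-coding transcripts alone is therefore uncertain. B4galt3 was not called in any comparison and, at 20.1 TPM at day 6 and 22.1 TPM at day 9, was the second and the first member by TPM in those groups. Its exons overlap 791 bases of Ppox on the opposite strand, at 38.8 and 41.3 CPM at day 6 and 36.4 and 32.7 CPM at day 9, so its level and rank are uncertain. The summed level of B4galt1 to B4galt4 was 69.8 ± 0.386 TPM (SD, n = 2) in MEFs, between 44.4 ± 0.210 and 45.3 ± 0.466 TPM from day 3 to day 9, and 34.2 ± 2.07 TPM in ESCs. The lactosylceramide synthases B4galt5 and B4galt6 and the proteoglycan linker enzymes B4galt7 and B3galt6 were not called either, and B4galt6 ranged from 29.9 to 58.5 CPM. B4galt2, which fell from 64.3 and 63.2 CPM in MEFs to 22.0 and 22.4 CPM in ESCs, shares 26.7% of its 31-base words with other genes, mostly with Ccdc24 on the same strand, and its reads are uncertain.

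Of the 11 tested enzymes that extend or branch N-acetyllactosamine and mucin-type chains, 6 fell and 2 rose at day 3, where 14.5% of all genes were lower and 14.6% higher. In ESCs 7 were higher and 1 lower than at day 9, where the backgrounds were 18.6% and 14.3%. Whether these enzymes differ from the other groups was not tested. B3gnt9 was at 58.4 and 58.3 CPM in MEFs, 3.58 and 3.37 CPM at day 3, 0.823 and 0.544 CPM at day 6, 0.289 and 0.354 CPM at day 9 and 5.04 and 5.21 CPM in ESCs. Its 16.8-fold fall at day 3 (log2 fold change -4.07 ± 0.09, adjusted p = 2.8e-14, edgeR) was followed by calls at every later step. Exons of B3gnt9 overlap 416 bases of D230025D16Rik on the opposite strand, and use of strand in counting was not given in the sources used here. The ESC level of B3gnt9 stood beside fibroblast markers at 840 and 886 TPM in the same libraries and 11.7 and 11.6 TPM at day 9, and their part in the result was not tested.

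B3gnt2, the main poly-N-acetyllactosamine synthase, was at 14.2 and 10.9 CPM in MEFs, 42.5 and 45.8 CPM at day 3, 40.4 and 45.9 CPM at day 6, 27.8 and 33.6 CPM at day 9 and 19.6 and 16.8 CPM in ESCs. It shares 2449 exon bases (64.6% of its 31-base words) with the read-through gene Gm28048, so the split of reads between them is uncertain. The sum of both genes took the same course, at 31.7 ± 0.962 CPM (SD, n = 2) in MEFs, 142 ± 5.25 CPM at day 3, 128 ± 2.62 CPM at day 6, 94.5 ± 3.07 CPM at day 9 and 42.9 ± 0.749 CPM in ESCs. B3gnt2 itself was 3.55-fold higher at day 3 than in MEFs (log2 fold change 1.83 ± 0.12, adjusted p = 5.5e-09, edgeR). B3gnt7, which extends keratan sulfate chains, was low in MEFs (0.148 and 0.488 CPM) and higher in every later group, with 8.51 and 8.75 CPM at day 3, 15.6 and 14.9 CPM at day 6, 21.3 and 22.0 CPM at day 9 and 47.7 and 50.1 CPM in ESCs. Its levels did not overlap between any pair of groups, and the log2 fold change of ESCs against MEFs was 7.18 ± 0.15 (adjusted p = 1.1e-14, edgeR).

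B3gnt5, which starts the lacto-series glycolipids, was high at both ends, at 20.8 and 20.0 CPM in MEFs and 24.7 and 23.3 CPM in ESCs, and between 6.32 and 8.44 CPM in the 6 libraries of day 3 to day 9. The log2 fold changes were -1.46 ± 0.08 at day 3 (adjusted p = 1.2e-09) and 1.52 ± 0.08 for ESCs against day 9 (adjusted p = 4.9e-10, edgeR). Gcnt4, a branching enzyme of mucin-type chains, was at 26.0 and 25.4 CPM in MEFs, 9.13 and 9.90 CPM at day 3, 22.6 and 23.0 CPM at day 6, 13.2 and 12.2 CPM at day 9 and 5.77 and 5.71 CPM in ESCs. It therefore fell at day 3 (log2 fold change -1.43 ± 0.07) and rose at day 6 (1.26 ± 0.07, adjusted p = 1.9e-09, edgeR). Gcnt1, which makes the core branch of mucin-type chains, was between 0.176 and 0.857 CPM from day 3 to day 9 and at 7.34 and 7.21 CPM in ESCs. B3gnt3, which extends such chains, was at 3.95 and 3.98 CPM in ESCs and under 0.7 CPM elsewhere.

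Gcnt2 (chromosome 13, 40859754 to 40960892, plus strand, GRCm38), the enzyme that branches linear N-acetyllactosamine into the I antigen, fell and then returned. It was at 27.6 and 28.5 CPM in MEFs, 5.57 and 4.76 CPM at day 3, 7.14 and 7.44 CPM at day 6, 14.7 and 16.8 CPM at day 9 and 44.5 and 44.2 CPM in ESCs. The libraries of MEFs and ESCs were thus above all others. The log2 fold changes were -2.44 ± 0.09 at day 3 (adjusted p = 5.4e-12), 1.12 ± 0.09 at day 9 against day 6 (adjusted p = 1.8e-07) and 1.49 ± 0.07 in ESCs against day 9 (adjusted p = 1.3e-10, edgeR). On the log2(TPM + 1) scale the step to day 9 was 0.56, under the minimum.

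The 3 protein-coding transcripts of Gcnt2 start in different first exons, and the mix of transcripts also differed between groups. This was noticed after the values were seen and is given without a test. Each transcript has 1206 coding bases, of which the last 288 are the same in all 3 and the first 918 are 63.0% to 67.9% identical between pairs. The first 120 coding bases are printed because they show what tells the reads of the transcripts apart. Capitals mark the 100 positions at which the 3 are not all the same. All lie on the plus strand of GRCm38, Gcnt2-201 at chr13:40917883-40918002, Gcnt2-202 at chr13:40887367-40887486 and Gcnt2-203 at chr13:40860355-40860474.
Gcnt2-201: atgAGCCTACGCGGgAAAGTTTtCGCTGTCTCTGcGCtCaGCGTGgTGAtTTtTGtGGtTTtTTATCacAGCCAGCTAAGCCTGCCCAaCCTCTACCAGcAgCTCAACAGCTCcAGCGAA
Gcnt2-202: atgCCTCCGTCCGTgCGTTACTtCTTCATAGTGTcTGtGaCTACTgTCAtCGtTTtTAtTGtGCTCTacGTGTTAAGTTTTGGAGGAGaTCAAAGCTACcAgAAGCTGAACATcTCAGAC
Gcnt2-203: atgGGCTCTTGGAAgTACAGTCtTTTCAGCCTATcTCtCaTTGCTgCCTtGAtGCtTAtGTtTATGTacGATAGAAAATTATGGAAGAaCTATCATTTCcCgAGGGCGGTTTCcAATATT
Gcnt2-201 took 69.7% and 71.4% of the gene's reads in MEFs, 20.2% and 20.7% at day 3, 19.0% and 16.7% at day 6, 20.5% and 22.6% at day 9, and 28.0% and 24.4% in ESCs. Gcnt2-202 took 6.09% and 8.33% in MEFs, 66.3% and 60.8% at day 3, 78.1% and 83.3% at day 6, 75.6% and 70.8% at day 9, and 61.2% and 66.6% in ESCs. The MEF pair lay apart from the 8 other libraries in both shares. In estimated reads, Gcnt2-202 rose from 46 and 78 in MEFs to 923 and 1102 in ESCs, and Gcnt2-201 went from 521 and 667 to 33 to 46 at day 3 and day 6 and to 423 and 404 in ESCs. The level of Gcnt2 in MEFs and ESCs thus came from different main transcripts. Of Gcnt2-203 there were 182 and 190 reads in MEFs, 28 and 30 at day 3, 7 and 0 at day 6, 18 and 44 at day 9 and 162 and 148 in ESCs. These are salmon's divisions of reads among transcripts with a common end, and the error of that division is not known here.

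**Figure D4:**
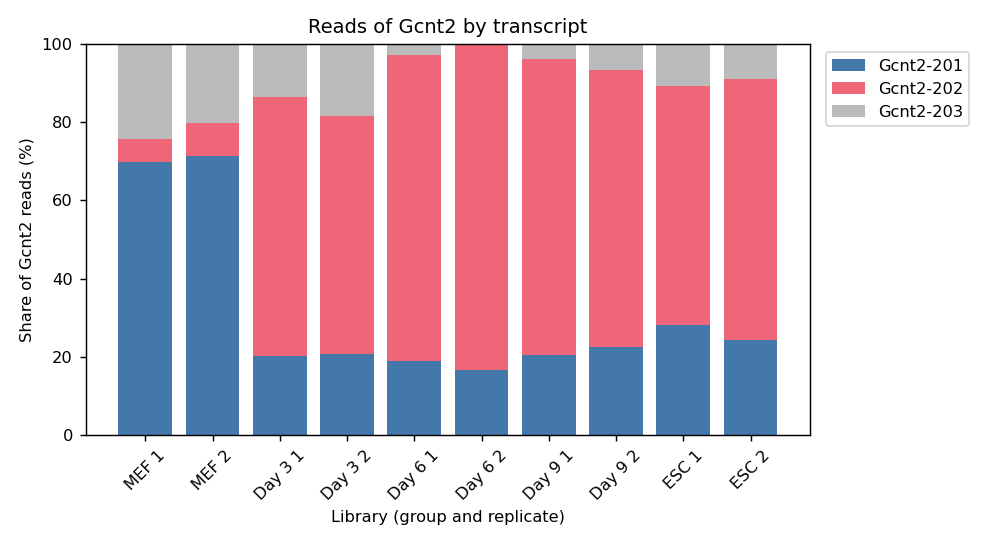
Share of the estimated reads of Gcnt2 assigned to each of its 3 protein-coding transcripts, in percent, with 1 stacked bar per library. Gcnt2-201 (blue) takes 69.7% and 71.4% in MEFs and at most 28.0% elsewhere, and Gcnt2-202 (red) takes at least 60.8% outside MEFs.

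The N-glycan branching enzymes (Mgat genes) differed from each other in course. Mgat4e was not on the list of this group and was placed in it by its family name. Mgat1 and Mgat2, which act at the start of complex N-glycans, were highest in MEFs. Mgat1 was at 125 and 121 CPM in MEFs, 73.3 and 74.7 CPM at day 3, 31.0 and 32.7 CPM at day 6, 22.7 and 23.2 CPM at day 9 and 30.8 and 29.5 CPM in ESCs. It fell at day 6 (log2 fold change -1.22), and both Mgat1 (-2.03) and Mgat2 (-1.23) were lower in ESCs than in MEFs by edgeR. Without TMM the value of Mgat2 was -0.89, under the minimum. Mgat4a and Mgat5, which add later branches, rose at day 3. Mgat4a was at 3.55 and 2.71 CPM in MEFs, 30.7 and 29.9 CPM at day 3, 55.3 and 56.1 CPM at day 6, 53.5 and 55.2 CPM at day 9 and 14.8 and 14.5 CPM in ESCs. It rose 9.79-fold at day 3 (log2 fold change 3.29 ± 0.09, adjusted p = 2.2e-13) and was 3.70-fold lower in ESCs than at day 9 (-1.89 ± 0.06, adjusted p = 1.8e-12, edgeR).

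Mgat5 was at 15.8 and 15.4 CPM in MEFs, 37.2 and 39.3 CPM at day 3, 55.6 and 58.3 CPM at day 6, 39.2 and 43.5 CPM at day 9 and 14.1 and 14.5 CPM in ESCs. Its highest level was thus at day 6, and MEFs and ESCs were its lowest groups. It was 2.90-fold lower in ESCs than at day 9 (log2 fold change -1.54 ± 0.06, adjusted p = 3.8e-11, edgeR). Mgat5b, its relative known for branching O-mannose chains in brain, had at most 0.148 CPM in MEFs and at day 3, 0.353 and 0.544 CPM at day 6, 2.22 and 2.50 CPM at day 9 and 14.2 and 14.4 CPM in ESCs. It rose at the day 6 step from 2 reads to 30 reads over both libraries (ratio 15.9, exact 95% interval 4.03 to 137, counting error only), at the day 9 step by 2.39 ± 0.30 on the log2 scale (adjusted p = 2.5e-05, edgeR) and in ESCs against day 9 by 2.60 ± 0.22 (adjusted p = 8e-08, edgeR). Mgat4e had 56 reads in ESCs against 0 at day 9, at least 18.5-fold higher with a floor of 3 reads over the group. Mgat4b, which adds the same branch as Mgat4a, was between 32.1 and 72.0 CPM and was not called in any comparison, and neither was Mgat3, which adds the bisecting residue.

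The 4 β4-N-acetylgalactosaminyltransferases differed in course from each other. B4galnt3 and B4galnt4 both make LacdiNAc, a chain with N-acetylgalactosamine in place of the galactose of N-acetyllactosamine. B4galnt4 was at 0.850 and 0.854 CPM in MEFs, 9.96 and 10.9 CPM at day 3, 74.5 and 75.9 CPM at day 6, 74.0 and 75.7 CPM at day 9 and 56.6 and 56.8 CPM in ESCs. It rose at both of the first steps, by 3.61 ± 0.12 (adjusted p = 2.6e-12) and 2.85 ± 0.05 (adjusted p = 1.7e-14, edgeR) on the log2 scale. Between day 9 and ESCs its log2 fold change was -0.40, under the minimum. B4galnt3 came later, with at most 0.148 CPM in MEFs and at day 3, 3.17 and 3.09 CPM at day 6, 25.2 and 22.3 CPM at day 9 and 25.8 and 27.1 CPM in ESCs. Its rise from day 6 to day 9 was 7.56-fold (log2 fold change 2.92 ± 0.11, adjusted p = 1.1e-10, edgeR). B4galnt1, the ganglioside enzyme that makes GM2 and GD2, fell at day 6 from 78.1 and 75.4 CPM to 23.1 and 26.1 CPM (log2 fold change -1.64 ± 0.06, adjusted p = 1.1e-11, edgeR). B4galnt2, which makes the Sda antigen, was at 2.47 and 2.62 CPM in ESCs and under 0.9 CPM elsewhere.

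Sialyltransferases were the largest group, with 19 of 20 members tested. At day 3, 4 rose and 1 fell, where 14.6% of all tested genes were higher and 14.5% lower. At day 6, 4 rose and 2 fell, against 9.26% and 10.2% of all genes. At day 9, 1 rose and 4 fell, against 5.18% and 2.68%. In ESCs, 5 were higher and 5 lower than at day 9, against 18.6% and 14.3%. Relative to MEFs, 6 were higher and 7 lower in ESCs, against 25.5% and 20.6%. Without TMM the last count of lower members was 5. St3gal6, which sialylates N-acetyllactosamine on the way to sialyl Lewis x, was at 2.66 and 3.05 CPM in MEFs, 14.2 and 13.2 CPM at day 3, 21.0 and 20.3 CPM at day 6, 8.52 and 8.86 CPM at day 9 and 0.442 and 0.748 CPM in ESCs. It rose 4.77-fold at day 3 (log2 fold change 2.25 ± 0.12, adjusted p = 8.4e-10) and fell 2.37-fold from day 6 to day 9 (-1.25 ± 0.10, adjusted p = 3e-07, edgeR). Its exons overlap 1603 bases of Dcbld2 on the opposite strand, and use of strand in counting is not known here. Dcbld2 was at 170 and 179 CPM in MEFs, 78.1 and 76.7 CPM at day 3, 50.6 and 48.7 CPM at day 6, 41.9 and 43.4 CPM at day 9 and 80.1 and 78.6 CPM in ESCs. Its part in the level of St3gal6 was not tested. The related St3gal3 was not called in any comparison, and St3gal4 only in ESCs against MEFs (-1.14, and -0.80 without TMM). The summed TPM of St3gal3, St3gal4 and St3gal6 was 17.4 ± 0.404 (SD, n = 2) in MEFs and 21.4 ± 0.0259 at day 3. It was 25.9 ± 0.0215 at day 6, 13.0 ± 0.237 at day 9 and 11.6 ± 0.411 in ESCs. On the TPM scale this sum and that of Fut4, Fut7 and Fut9 were both highest at day 6. For the sialyltransferases this came from St3gal6, at 1.13 TPM in MEFs and 12.2 TPM at day 6, whose level is uncertain for the overlap with Dcbld2. St3gal3 was at 8.21 TPM in MEFs and 5.56 TPM at day 6, and St3gal4 at 8.05 and 8.09 TPM. At day 9 the sialyltransferase sum lay below all earlier libraries. The sum of Fut4, Fut7 and Fut9 was 3.31 and 3.0 TPM at day 6 and 2.9 and 2.65 TPM at day 9. Its day 6 and day 9 libraries thus did not overlap on this scale either, whereas those of Fut9 in CPM did.

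St3gal1 and St3gal2, which sialylate mucin-type chains and gangliosides, were highest in MEFs. St3gal1 was at 56.8 and 57.8 CPM in MEFs, 43.9 and 43.8 CPM at day 3, 14.1 and 14.5 CPM at day 6, 8.71 and 8.86 CPM at day 9 and 9.10 and 8.25 CPM in ESCs. Its fall at day 6 was 3.06-fold (log2 fold change -1.62 ± 0.06, adjusted p = 8.2e-12, edgeR). St3gal2 was at 149 and 147 CPM in MEFs, 71.6 and 76.6 CPM at day 3, 36.9 and 38.0 CPM at day 6, 17.4 and 17.5 CPM at day 9 and 45.3 and 44.7 CPM in ESCs. It fell at day 9 (log2 fold change -1.10 ± 0.05, adjusted p = 1.3e-09) and was higher in ESCs than at day 9 (1.37 ± 0.05, adjusted p = 9.9e-12, edgeR). St3gal5, which makes GM3 and so opens the ganglioside pathway, fell at day 6 from 37.7 and 35.6 CPM to 6.82 and 6.68 CPM (log2 fold change -2.44 ± 0.08, adjusted p = 8.5e-12, edgeR). B4galnt1, next on that pathway, fell at the same step. St8sia1, which makes GD3, rose at day 3 and day 6 from a low level, with 0.702 and 0.366 CPM in MEFs, 4.12 and 3.84 CPM at day 6 and 10.1 and 9.91 CPM in ESCs.

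St6gal1, which caps N-glycans with sialic acid, was at 18.7 and 20.5 CPM in MEFs, 81.7 and 84.0 CPM at day 3, 46.4 and 42.4 CPM at day 6, 41.6 and 48.3 CPM at day 9 and 19.0 and 20.5 CPM in ESCs. Its rise at day 3 was 4.22-fold (log2 fold change 2.08 ± 0.08, adjusted p = 7e-12, edgeR), and ESCs overlapped MEFs. St8sia6, like Fut9, was highest in the 4 sorted libraries, at 0.111 and 0.0915 CPM in MEFs, 0.512 and 0.355 CPM at day 3, 19.9 and 22.4 CPM at day 6, 16.3 and 15.8 CPM at day 9 and 2.09 and 1.17 CPM in ESCs. It rose 48.1-fold at day 6 (log2 fold change 5.59 ± 0.21, adjusted p = 2.6e-11) and was 9.91-fold lower in ESCs than at day 9 (-3.31 ± 0.17, adjusted p = 4.9e-10, edgeR). St8sia2, a polysialic acid synthase, was at 10.5 and 10.6 CPM in MEFs, 16.8 and 17.9 CPM at day 3, 19.3 and 21.9 CPM at day 6, 7.71 and 8.46 CPM at day 9 and 0.412 and 0.481 CPM in ESCs. It fell 2.54-fold from day 6 to day 9 (log2 fold change -1.34 ± 0.09, adjusted p = 3.6e-08, edgeR). The other polysialic acid synthase, St8sia4, stayed under 0.8 CPM. St6galnac6, which adds sialic acid to gangliosides, went from 35.3 and 34.5 CPM at day 6 to 16.0 and 18.4 CPM at day 9 (log2 fold change -1.01, edgeR), a call that was lost without TMM, without day 6 replicate 1 (-1.0) or without day 9 replicate 1 (-0.92).

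The polypeptide N-acetylgalactosaminyltransferases (Galnt genes) place the first sugar of mucin-type chains on serine and threonine. Of 15 tested members, 4 were higher and 5 lower at day 3, where 14.6% of all tested genes were higher and 14.5% lower. Galnt18 was at 165 and 170 CPM in MEFs, 19.9 and 20.7 CPM at day 3, 4.64 and 4.57 CPM at day 6, 1.70 and 2.27 CPM at day 9 and 37.1 and 38.7 CPM in ESCs. It fell at each of the first 3 steps and was 18.7-fold higher in ESCs than at day 9 (log2 fold change 4.23 ± 0.09, adjusted p = 1.5e-14, edgeR). The fibroblast markers were likewise higher in ESCs than at day 9, as given for B3gnt9, and their part in this result was not tested. Galnt6 was at 44.4 and 46.9 CPM in ESCs and at most 0.418 CPM in any other library. Over the group it had 3264 reads in ESCs and 2 in MEFs, a ratio of 1369 (exact 95% interval 379 to 11306, counting error only). Against day 9 the log2 fold change was 7.18 ± 0.15 (adjusted p = 1.6e-14, edgeR).

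Galnt15 was highest at day 3, at 17.3 and 18.6 CPM, with 0.0739 and 0.0915 CPM in MEFs, 3.06 and 3.42 CPM at day 6, 1.51 and 1.69 CPM at day 9 and 0.118 and 0.240 CPM in ESCs. It rose at day 3 by 7.68 ± 0.26 on the log2 scale (adjusted p = 3.7e-12), the largest rise of a member at that step, and fell by 2.47 at day 6 (adjusted p = 4e-09, edgeR). Galnt2 took the same direction at both steps, at 16.3 and 8.11 CPM in MEFs, 28.6 and 31.1 CPM at day 3 and 3.82 and 4.66 CPM at day 6. It shares 88.9% of its 31-base words with the read-through gene Gm20388, so the division of reads between the 2 genes is uncertain. The sum of both genes was at 331 and 317 CPM in MEFs, 783 and 777 CPM at day 3, 201 and 204 CPM at day 6, 136 and 142 CPM at day 9 and 127 and 133 CPM in ESCs, so the undivided sum was also highest at day 3. Galnt12 rose at day 3 from 4.54 and 3.78 CPM to 12.8 and 13.2 CPM and was 5.35-fold lower in ESCs than at day 9, at 2.09 and 2.64 CPM (log2 fold change -2.42 ± 0.13, adjusted p = 4.3e-10, edgeR). Galnt4 was at 25.6 and 26.5 CPM in MEFs and 5.36 and 5.71 CPM in ESCs (log2 fold change -2.23 ± 0.08, adjusted p = 2.2e-12, edgeR), with 7.73% of its 31-base words shared, most of them with Poc1b. Galnt9 had 102 reads in MEFs and 0 at day 3, at least 40.3-fold lower with a floor of 3 reads over the group. Galnt1, the member with the highest TPM at day 6 and in ESCs, was at 129 CPM in both MEF libraries, 206 and 212 CPM at day 3 and 74.7 and 71.9 CPM in ESCs and was not called in any comparison.

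The 14 members never called were B3galt4, B3galt6, B4galt3, B4galt5, B4galt6, B4galt7, Galnt1, Galnt7, Galnt11, Galnt14, Mgat3, Mgat4b, St3gal3 and St6galnac4. They include 6 of the 10 tested β-galactosyltransferases, again without a matching share of all tested genes.

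As summed TPM (described here and not tested), the 83 members held 436 ± 14.6 TPM (SD, n = 2) in MEFs, 425 ± 18.1 TPM at day 3, 315 ± 1.29 TPM at day 6, 246 ± 4.17 TPM at day 9 and 266 ± 4.18 TPM in ESCs. The 4 groups with the largest sums were all lower at day 9 than in MEFs. The Galnt genes went from a sum of 101 ± 3.46 in MEFs and 113 ± 7.35 at day 3 to 52.0 ± 1.10 at day 6, 40.9 ± 1.63 at day 9 and 53.0 ± 0.184 in ESCs. Galnt2, whose reads are uncertain, made up 15.6 TPM of this sum in MEFs, 45.5 TPM at day 3 and 7.14 TPM at day 6. The course of this sum and of that of all members thus depends in part on Galnt2. The sialyltransferases went from 89.3 ± 3.36 and 107 ± 0.782 to 80.4 ± 4.55, 51.3 ± 2.37 and 53.8 ± 0.689. The N-glycan branching enzymes went from 96.1 ± 4.46 and 79.6 ± 3.81 to 55.5 ± 0.452, 41.5 ± 0.611 and 43.1 ± 4.04. The β-galactosyltransferases were at 96.1 ± 1.67 in MEFs and between 59.6 ± 1.72 and 66.6 ± 3.34 in the other groups. The enzymes that extend or branch N-acetyllactosamine and mucin-type chains had their highest sum in ESCs, at 31.1 ± 0.191, against 27.9 ± 0.678 in MEFs, 23.7 ± 2.11 at day 3, 24.7 ± 0.512 at day 6 and 19.7 ± 1.02 at day 9. The β4-N-acetylgalactosaminyltransferases were at 9.70 ± 0.142 in MEFs and between 17.9 ± 0.00118 and 18.8 ± 0.124 later. The fucosyltransferases as a whole were highest at day 3, at 21.4 ± 1.55, and lowest in ESCs, at 8.05 ± 0.511, unlike Fut9 alone.

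**Figure D5:**
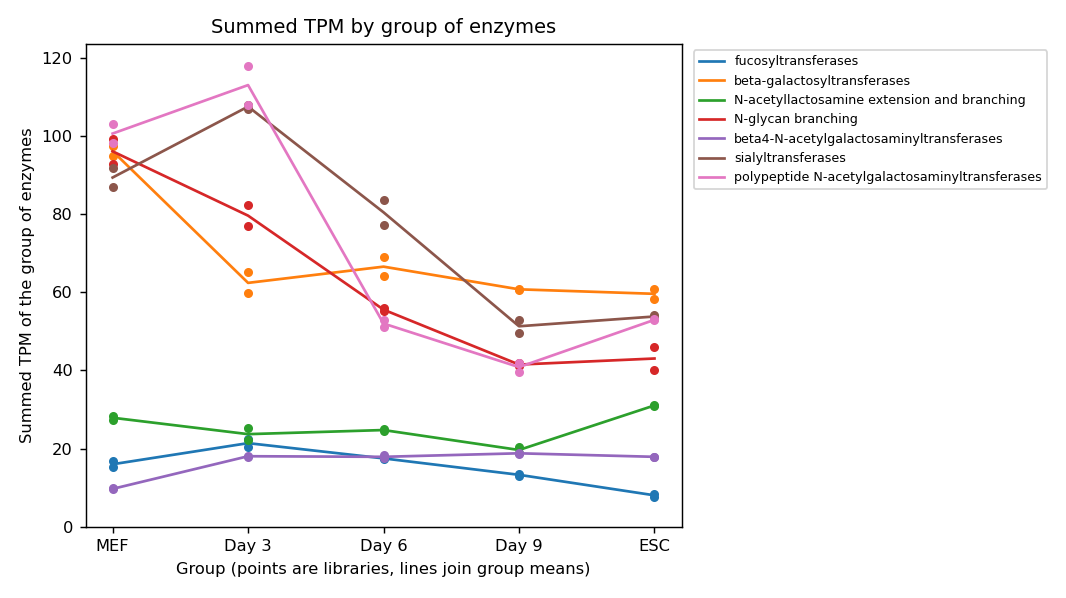
Summed TPM of the members of each enzyme group in the 5 groups of cells, on a linear axis from 0. Points are libraries and lines join the means of 2 libraries. Polypeptide N-acetylgalactosaminyltransferases, sialyltransferases and N-glycan branching enzymes are lower from day 6 on than in MEFs and at day 3, with sialyltransferases at 80.4 at day 6 and 51.3 at day 9. The sum of the polypeptide enzymes includes Galnt2, at 45.5 TPM at day 3, whose reads are uncertain.

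A list of 56 other genes of the same pathways (nucleotide sugar supply, Golgi mannosidases, O-fucose enzymes, sialidases, fucosidases and further glycosyltransferases) had 50 tested genes. Of these, 4 rose and 13 fell at day 3, 2 rose and 3 fell at day 6, 3 rose and 0 fell at day 9, 8 were higher and 6 lower in ESCs than at day 9, and 7 were higher and 16 lower in ESCs than in MEFs. The backgrounds over all genes, higher and lower in that order, were 14.6% and 14.5%, 9.26% and 10.2%, 5.18% and 2.68%, 18.6% and 14.3%, and 25.5% and 20.6%. The 6 genes that supply GDP-fucose, the donor used by Fut9, had 1 call in the 5 comparisons. Their median log2 fold change in ESCs against MEFs was -0.62. Fuk, which salvages free fucose, was at 18.2 and 19.1 CPM in MEFs and 36.1 and 33.8 CPM in ESCs (log2 fold change 0.91, under the minimum). Tsta3, which completes GDP-fucose synthesis, was between 34.4 and 42.3 CPM in all 10 libraries. The called gene was Slc35c1, the Golgi carrier of GDP-fucose, which was lower in ESCs (11.8 and 11.3 CPM) than at day 9 (27.3 and 26.3 CPM), with a log2 fold change of -1.21 ± 0.06 (adjusted p = 5e-10, edgeR). The 5 mannosidases, which trim N-glycans around the step of Mgat1, were all lower in ESCs than in MEFs, and Man2a1 was at 331 and 323 CPM in MEFs, 111 and 117 CPM at day 3 and 45.5 and 44.9 CPM at day 9. Lfng and Mfng, which extend O-fucose on Notch, differed in course. Lfng was at 11.9 and 12.5 CPM in MEFs, 83.2 and 84.5 CPM at day 6 and 2.50 and 2.56 CPM in ESCs, whereas Mfng was at most 0.118 CPM before day 6 and at 8.19 and 8.36 CPM in ESCs. A4galt, which makes the globo-series glycolipid Gb3, was at 4.32 and 3.72 CPM in MEFs, 0.215 and 0.0296 CPM at day 3, 7.10 and 6.79 CPM at day 9 and 18.1 and 19.7 CPM in ESCs.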

How the data were processed

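The authors deposited 1 table per library with, per the file headers, TPM and estimated counts for 109617 transcripts, plus their lengths. Per the labels, stranded poly(A) libraries were sequenced as single reads. Salmon 0.8.2 and the build mm10 are named in the submitters' processing notes; the annotation release and use of strand are not given in the sources used here. Effective lengths, by which the deposited TPM values are scaled, were identical in all tables. Estimated counts were summed to 45706 genes and rounded. Genes were kept with filterByExpr (minimum count 10, minimum total 15), leaving 20165. Libraries were TMM-scaled, and edgeR 4.0.16 (R 4.3.3, quasi-likelihood) was fitted to the 10 libraries together with 1 mean per group, since 2 libraries give a poor estimate of spread. The common biological coefficient of variation was 3.75%. Calls needed a Benjamini-Hochberg adjusted p under 0.05 over all tested genes and a log2 fold change of 1 or more in size. The test was also run on simulated counts drawn from the day 3 means, with the same spread for all genes and 200 changed genes. That setting is simpler than the data, so it does not show how the test performs on these members. With 2 libraries against 2, an exact permutation test cannot go below p = 0.333 and was not used. Each library was counted as 1 sample. Replicate pairs differed beyond sampling noise (chi-square per degree of freedom 2.91 to 5.43), which does not show whether they came from separate animals or cultures. Ratios from 3 or fewer reads have exact intervals at 95% for counting error only.

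Coordinates, coding sequences and overlaps come from GENCODE M21 (GRCm38), in which all 83 members were found by gene ID. All fucosyltransferases were named whatever their values, and for each comparison up to 6 called members with the largest rise and 6 with the largest fall with a mean of at least 10 CPM in the group where they are higher; other members named serve to account for the groups. The members and lists were chosen with earlier results of these data known. Alternatives were DESeq2 1.42.0, its size factors in edgeR, total reads without TMM, no low-count filter, a filter of 10 CPM in 2 libraries, limma 3.58.1 on log2(TPM + 1), fits to the 2 groups compared, no fold change minimum, a replicate block and leaving out each library. Tables and figures were made in Python 3.11.15 with matplotlib 3.10.9, pandas 2.3.3, numpy 2.4.6 and scipy 1.17.1.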

Additional observations from a re-analysis of the deposited data

How the results depend on the processing

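Without the fold change minimum the counts of called members rose: 29 higher and 28 lower at day 3 against MEF, 23 and 29 at day 6 against day 3, 13 and 30 at day 9 against day 6, 26 lower in ESCs than at day 9, and 35 lower in ESCs than in MEFs. With the filter of 10 CPM, which left 49 members, 8 were lower at day 3, 4 were higher at day 9, and 12 and 9 were higher in ESCs than at day 9 and in MEFs. With limma on log2(TPM + 1), 6 members were lower at day 3, 5 were higher at day 6, 1 was higher and 1 lower at day 9, 9 were higher and 3 lower in ESCs than at day 9, and 8 were higher in ESCs than in MEFs. The pseudocount compresses changes of genes at low TPM. Leaving out 1 library gave 14 to 15 higher and 14 to 15 lower members at day 3, 10 higher and 10 to 12 lower at day 6, 6 to 8 higher and 4 to 8 lower at day 9, 20 to 24 higher and 13 to 14 lower in ESCs than at day 9, and 20 to 22 in each direction in ESCs against MEFs. Where this leaves a group with 1 library, that library is assumed to vary like the other groups. The share of all tested genes called was not counted under these alternatives. The counts of members in this section therefore have no background beside them and show only how the calls depend on the setting.

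None of the named calls changed direction under any alternative run. Of 61 calls on named members, 18 were lost with limma, 2 with DESeq2 and 3 without TMM. With the stricter filter 55 were kept and 1 was lost, and the others were filtered out and not tested. Calls of Fut1, Fut2, Fut4 and St6galnac6 were also lost when 1 library was left out, as given with these genes. Without TMM the median over all genes shifted to a log2 fold change of 0.438 in ESCs against MEFs, 0.285 at day 3 and 0.102 at day 6. With the replicate number as a block, 22 members instead of 24 were higher in ESCs than at day 9, and the 9 other counts were as without it. Deviations of same-numbered libraries, taken over all tested genes, correlated between -0.02 and 0.022 over 10 pairs. No pairing by number was thus seen across all tested genes, but a pairing that touches few genes could be missed this way. Members under 1 CPM rest on few reads per library, which limits what can be called among them at this depth.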
